A study of Homo sapiens with 6 samples.

Results

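Replication-dependent histone genes encode the bulk of the histones that package new DNA, and here they comprised the 69 protein-coding genes of the hg38 annotation (GENCODE 44) with the symbol H1-1 to H1-6 or with H2AC, H2BC, H3C or H4C followed by a number. They were 69 of 20033 protein-coding genes examined, with 6 genes for the linker histone H1, 17 for H2A, 18 for H2B, 13 for H3 and 15 for H4. Genes were matched by symbol alone, although the set was chosen with earlier results of these data known. Of the 69 genes, 55 lay on chromosome 6 between positions 25723397 and 27893891, 11 on chromosome 1 between 149782689 and 149887965, 2 on chromosome 1 between 228434777 and 228463104, and 1 (H4C16) on chromosome 12. The canonical transcript of each gene has a single exon, so that a summit in that transcript lies in its coding sequence or in its untranslated ends. Some annotated genes, such as H2AC25 and H2BC4, extend well beyond the canonical transcript, and summits there were counted as in the gene.

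Binding of 3 factors was measured by ChIP-seq, the sequencing of DNA that is immunoprecipitated with a protein, in the clear cell renal cell carcinoma (ccRCC) line 786-O. DPF3a, the short isoform of a non-catalytic subunit of the SWI/SNF chromatin remodeling complex, was pulled down with an HA antibody from cells that overexpress the HA-tagged protein, fixed with both formaldehyde and DSG, which links proteins to each other. SMAD4, the common mediator of TGF-β signaling, and p300, a histone acetyltransferase and coactivator, were pulled down with antibodies to the proteins themselves after formaldehyde alone, and the labels do not say whether those cells overexpress DPF3a. Each factor had 2 replicates, combined by the authors into 1 list of peaks, and the DPF3a list held 51530 peaks, the SMAD4 list 46367 and the p300 list 20380.

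Histone mRNAs of this class are made in S phase from clusters of genes that gather at the histone locus body, where NPAT and its partners activate them. Their mRNAs carry no poly(A) tail and end in a stem-loop that is bound by SLBP. H2A and H2B genes often stand head to head and share the promoter between them, which commonly holds CCAAT and TATA boxes and the octamer bound by POU2F1 (Oct-1).

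With 1 combined list per factor, no test between replicates could be made. Counts of genes are therefore given with 95% Wilson intervals, which cover counting error only, beside the same count over all 20033 protein-coding genes. A summit is the base of highest read pileup in a peak, and its position is given in bp from the start of the gene, negative upstream. Fold enrichment is the pileup at the summit over the local background, each plus 1, as the peak caller gives it, and values are compared within a list only.

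At the histone genes DPF3a summits were few, at 18.8% of genes against 63.8% of all protein-coding genes and 15.9% of other genes with a single exon. SMAD4 (75.4% against 71.0%) and p300 (59.4% against 50.6%) were near their shares over all genes on this measure. Both were above their shares over other single-exon genes (22.2% and 14.6%). The measure takes in the whole annotated gene and 1000 bp on either side, so longer genes have more room for a summit. Summits of SMAD4 and p300 lay more often in the coding sequence than in the promoter. The H4 gene H4C4 (chr6:26188710-26189112, minus strand), the only histone gene with peaks of all 3 factors at one site within its canonical transcript, shows the arrangement. The first 240 bases of its coding sequence (chr6:26188837-26189076, hg38, minus strand) are printed with the 5 bases on either side of each summit in capitals. The capitals mark, in order, the SMAD4 summit at base 53 of the coding sequence, the DPF3a summit at base 79 and the p300 summit at base 175.

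H4C4: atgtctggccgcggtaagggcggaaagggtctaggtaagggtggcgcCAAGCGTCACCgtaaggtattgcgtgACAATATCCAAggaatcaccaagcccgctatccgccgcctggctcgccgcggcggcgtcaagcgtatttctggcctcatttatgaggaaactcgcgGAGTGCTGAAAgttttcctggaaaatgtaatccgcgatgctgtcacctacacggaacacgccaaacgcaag

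The same stretch of the H4 gene H4C6 (chr6:26240426-26240665, plus strand), which had no peak in any list, is shown for comparison. It has no capitals because no summit fell in it.

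H4C6: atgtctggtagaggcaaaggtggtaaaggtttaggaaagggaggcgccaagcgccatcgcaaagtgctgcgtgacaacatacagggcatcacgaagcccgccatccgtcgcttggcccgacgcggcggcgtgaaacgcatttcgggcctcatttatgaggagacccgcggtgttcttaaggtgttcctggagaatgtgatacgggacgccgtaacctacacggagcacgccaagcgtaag

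Over their 309 coding bases the 2 genes differed at 57 positions (81.6% identity), and both encode the same H4 protein. Of the 15 H4 genes, 14 encode this protein of 103 residues, and 11 of those 14 had a summit of at least 1 factor in the gene or within 1000 bp. Of the 3 without one, H4C14 and H4C15 have no 100-base sequence around them that occurs once in the reference, so the lack of a summit says nothing about binding there. The 10 genes that encode the commonest H3 protein, of 136 residues, all had one. The share of all protein-coding genes with a summit of at least 1 factor is not given here, so these counts are not read as particular to histone genes. The last of the 3 coding stretches is that of the H3 gene H3C2 (chr6:26031821-26032060, minus strand), the other gene with a coding summit of every factor that also touched both other lists. Its first run of capitals holds the SMAD4 summit at base 88, and the second holds the DPF3a summit at base 167 and the p300 summit at base 174. H4C6 and H3C2 were chosen for printing after their values were seen.

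H3C2: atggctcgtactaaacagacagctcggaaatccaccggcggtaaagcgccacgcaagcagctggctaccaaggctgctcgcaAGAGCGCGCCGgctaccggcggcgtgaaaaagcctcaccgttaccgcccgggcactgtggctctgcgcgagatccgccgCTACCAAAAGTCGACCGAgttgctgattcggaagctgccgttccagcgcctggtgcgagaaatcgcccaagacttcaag

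A DPF3a summit lay in the gene or within 1000 bp of it in 13 of the 69 histone genes (18.8%, 95% interval 11.4 to 29.6). The shares were 63.8% of all protein-coding genes, whose length was not matched, and 15.9% of other single-exon genes. A promoter summit, at most 1000 bp upstream of the start or in the 5′ untranslated part, was present in 3 histone genes (4.35%, 1.49 to 12) against 30.9% of all genes and 10.6% of other single-exon genes. A coding summit was present in 4 (5.8%, 2.28 to 14), close to the 6.2% of all genes. Within 1000 bp of the start on either side the count was 8 (11.6%, 5.99 to 21.2), against 41.8% of all genes. Other genes with a single exon, which include many that are silent in most tissues, had a DPF3a summit this close to the start in 13.5% of 1048 cases, so that the share in histone genes was near theirs and far below that of all genes.

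SMAD4 was found at 52 of the 69 genes (75.4%, 64 to 84), against 71.0% of all protein-coding genes and 22.2% of other single-exon genes. Within 1000 bp of the start the count was 47 (68.1%, 56.4 to 77.9), against 57.8% of all genes and 20.2% of other single-exon genes. A promoter summit was present in 11 histone genes (15.9%, 9.14 to 26.3), against 45.8% of all genes and 15.9% of other single-exon genes. A coding summit was present in 32 (46.4%, 35.1 to 58), against 8.68% of all genes and 5.25% of other single-exon genes.

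p300 had a summit at 41 of the 69 genes (59.4%, 47.6 to 70.2), against 50.6% of all genes and 14.6% of other single-exon genes. Within 1000 bp of the start it had one at 37 (53.6%, 42 to 64.9), against 39.3% of all genes and 13.2% of other single-exon genes. Promoter summits were present in 11 genes (15.9%, 9.14 to 26.3), against 22.9% of all genes and 7.73% of other single-exon genes. Coding summits were present in 30 (43.5%, 32.4 to 55.2), against 7.87% of all genes and 5.73% of other single-exon genes.

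**Figure D1:**
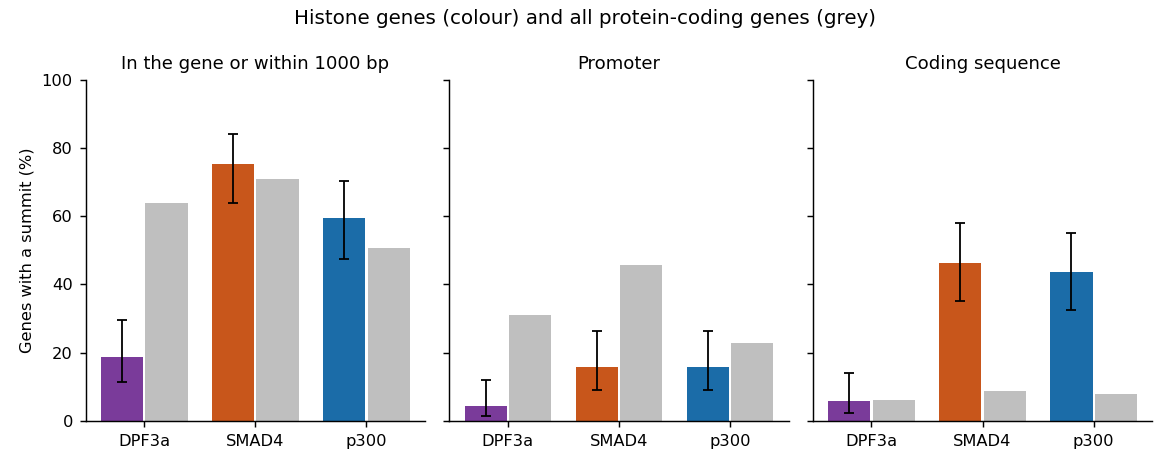
Share of genes (%, vertical axis) with a DPF3a, SMAD4 or p300 summit in the gene or within 1000 bp of it, in the promoter and in the coding sequence, for the 69 histone genes (coloured bars, with 95% Wilson intervals) and for all 20033 protein-coding genes (grey bars). DPF3a was at 18.8% of histone genes against 63.8% of all genes, and coding summits of SMAD4 and p300 were at 46.4% and 43.5% of histone genes against 8.68% and 7.87%. Other single-exon genes, not drawn, had a DPF3a summit in the gene or within 1000 bp in 15.9%.

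Scores in the lists are 10 times the −log10 q value, the q being the peak caller's p adjusted for the number of positions tested, and the authors kept peaks with a score over 50. With a score over 100 the coding summits of SMAD4 were still at 29 histone genes (42%, 31.1 to 53.8), against 7.5% of all genes. Those of p300 fell to 8 genes (11.6%, 5.99 to 21.2), against 2.64%, and those of DPF3a to 2 (2.9%, 0.799 to 9.97), against 2.84%.

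A site of all 3 factors, where a DPF3a peak and a peak of each other list overlap by at least 0.5 of both, was present at 2 of the 69 genes (2.9%, 0.799 to 9.97), against 29.4% of all protein-coding genes and 6.01% of other single-exon genes. With an overlap of 1 bp the count was 6, a rule to which the 29.4% and 6.01% do not apply. At H4C4 the DPF3a summit lay 114 bp past the start, with 21 reads and a fold enrichment of 6.32, the SMAD4 summit at 88 bp with 80 reads and 9.81, and the p300 summit at 210 bp with 27 reads and 6.28. The other site was in the annotated gene of the H2A gene H2AC25, 5402 bp from the start for DPF3a, outside the canonical transcript and far from the coding sequence. There the fold enrichment was 10.7 for both DPF3a and SMAD4, the highest of each factor at any histone gene, and 4.20 for p300.

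Histone genes with a summit of every factor, whether or not the peaks overlapped, numbered 10. By the product of the percentiles of fold enrichment within each list, H4C4 led, followed by H3C2 and H2AC25. H3C2 had a DPF3a fold enrichment of 8.47 with 52 reads at 205 bp, a SMAD4 value of 5.45 with 117 reads at 126 bp and a p300 value of 5.93 with 34 reads at 212 bp. Its DPF3a peak shared at least 0.5 of its length with the p300 peak, while the SMAD4 peak, 1033 bp wide against 376 bp, was too wide for that rule.

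The remaining DPF3a peaks lay lower in the list, off the genes, or both. The coding summits in the H4 gene H4C16 and the H2A gene H2AC21 had fold enrichments of 4.19 and 4.01 with 16 and 22 reads. The 3 promoter summits were at the H2A gene H2AC19 (at -857 bp, fold enrichment 5.93), at H4C3 (-680 bp, 4.52) and at H4C8 (-1 bp, 4.85), and all 3 had fewer than 20 reads. The 12 separate DPF3a peaks at histone genes had a median of 20 reads and a median fold enrichment of 5.01, at percentile 16.5 of the DPF3a list (95% interval of the median 4.99 to 43.7). H2BC4 and H2BC11, H2B genes annotated with long alternative transcripts, had DPF3a summits between 2628 and 20673 bp from the start only.

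Combinations of factors, counted by summits in the gene or within 1000 bp, fell into few kinds. SMAD4 with p300 and without DPF3a was the most frequent, at 30 genes, and 9 genes had SMAD4 alone, 3 had SMAD4 with DPF3a, and 1 (H4C1) had p300 alone. No gene had a DPF3a summit without a SMAD4 summit. The shares of these combinations over all protein-coding genes are not given here, so the counts are not read as particular to histone genes. For H4C1 the p300 summit lay at -979 bp, in the coding sequence of the neighbouring H3C1. The SMAD4 peak of H3C1 covered 94.5% of the H4C1 transcript, with its summit at -1050 bp and so just out of reach.

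The coding summits of SMAD4 and p300 stood at different distances from the start. The 32 SMAD4 coding summits lay between 39 and 289 bp past the start with a median of 117 bp, and 26 of them lay less than 150 bp from it. The 30 p300 coding summits lay between 90 and 502 bp with a median of 211.5 bp, and 27 of them lay 150 bp or more from it. The 4 DPF3a coding summits lay between 114 and 268 bp, with a median of 200.5 bp.

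Taking for each gene the summit nearest to its start, the median position at histone genes was 105 bp downstream for SMAD4, against 4 bp over all protein-coding genes and 17 bp over other single-exon genes. For p300 it was 205 bp downstream at histone genes, against 103 bp and 114 bp. These nearest summits were coding in 68.1% of the 47 histone genes for SMAD4 (53.8 to 79.6), against 10.2% over all genes and 20.3% over other single-exon genes. For p300 they were coding in 81.1% of the 37 genes (65.8 to 90.5), against 15.1% and 37%. Whether a summit counts as coding depends on the length of the 5′ untranslated part and on introns as well as on its position. By position alone, the nearest SMAD4 summit was downstream of the start in 76.6% of histone genes, against 50.5% and 52.8%. The p300 shares were 81.1%, 65.1% and 65.9%, a smaller difference than by coding summits.

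**Figure D2:**
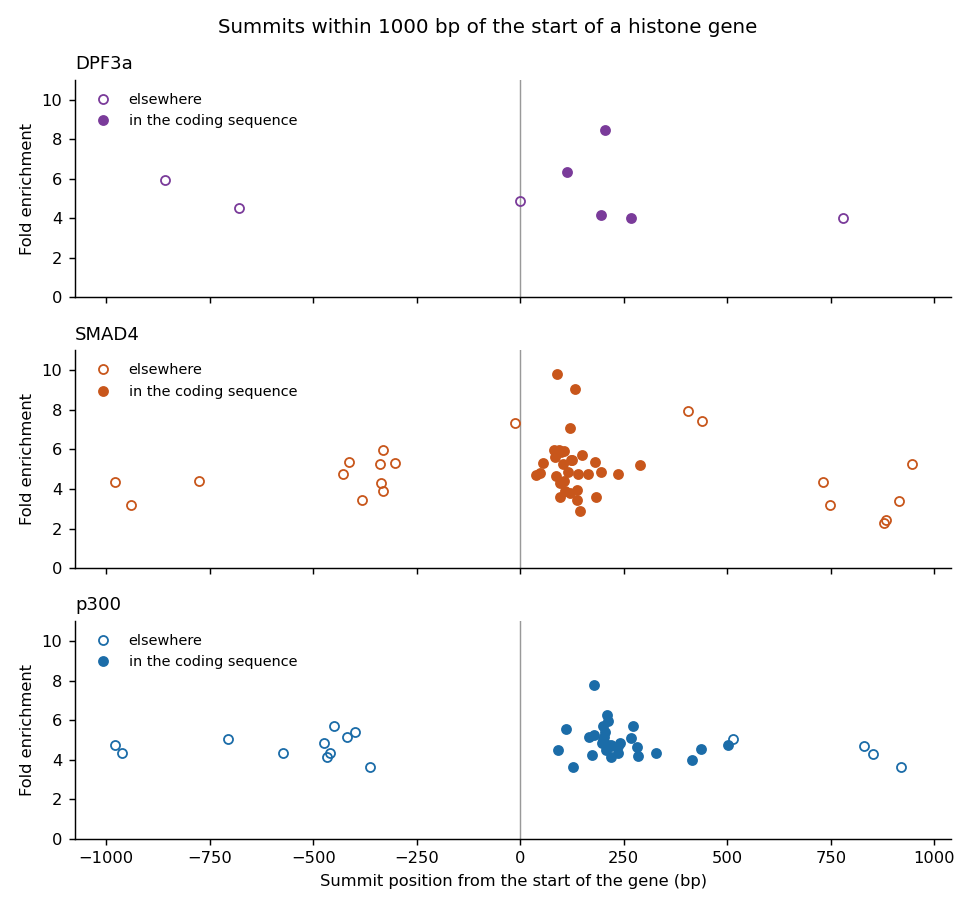
Fold enrichment (vertical axis) of every DPF3a, SMAD4 and p300 summit within 1000 bp of the start of a histone gene, against its position from the start in bp (horizontal axis, positive downstream). Filled points lie in the coding sequence of that gene, and a peak within reach of more than 1 gene appears once for each; SMAD4 coding summits gather at a median of 117 bp and p300 coding summits at a median of 211.5 bp.

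In 25 genes with a SMAD4 coding summit a p300 peak overlapped the SMAD4 peak. In 23 of these 25 genes (92%) the p300 summit was the further downstream of the pair, by a median of 93 bp. The same comparison over all 844 protein-coding genes with a coding SMAD4 summit and an overlapping p300 peak gave 64.8% and a median of 42 bp. Over 23 other single-exon genes it gave 65.2% and a median of 137 bp, wider than at histone genes. With SMAD4 summits of any zone within 1000 bp of the start, the share was 74.3% of 35 histone genes. That compares with 62.1% of all genes and 69.7% of other single-exon genes. In these any-zone shares the same 2 peaks can count for both genes of a head-to-head pair, with opposite direction. At H2AC12 the p300 summit was 86 bp further downstream, and the same peaks gave -86 bp at H2BC12. The exceptions among the 25 histone genes were H4C3, with p300 at 111 bp and SMAD4 at 131 bp, and H2AC15, with p300 at 205 bp and SMAD4 at 235 bp. The widest separations were in the H1 genes H1-3 and H1-4, where p300 lay at 502 and 437 bp and SMAD4 at 83 and 105 bp.

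**Figure D3:**
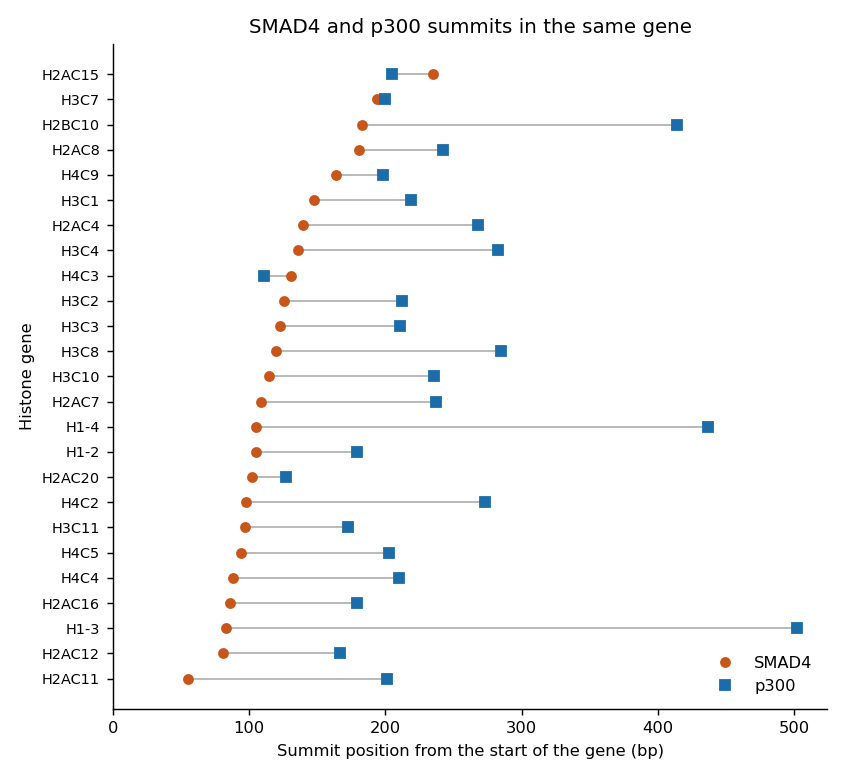
Position of the SMAD4 summit (circles) and of the nearest p300 summit of an overlapping peak (squares), in bp from the start of the gene (horizontal axis), for the 25 histone genes with a SMAD4 coding summit and such a p300 peak (vertical axis, ordered by the SMAD4 position). The p300 summit is further downstream in 23 of the 25 genes.

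The peaks behind these summits differed in extent. SMAD4 peaks with a coding summit had a median width of 1018 bp, and 31 of the 32 reached over the start of the gene, with a median reach of 166 bp upstream. They covered the whole coding sequence in 22 of the 32 genes. The p300 peaks had a median width of 414 bp, and 9 of the 30 reached over the start. A SMAD4 coding summit in a peak that touched no other list was present in H2BC18, H3C13, H2BC9, H2BC13, H3C12 and H2AC17, and a p300 coding summit of this kind only in H3C6, with a fold enrichment of 4.48 and 17 reads.

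SMAD4 peaks at histone genes combined many reads with a high local background. The 46 separate SMAD4 peaks had a median of 66.5 reads at the summit, against 39 over the whole list and 69 over the 10634 SMAD4 peaks near the start of a protein-coding gene. The local background, which is taken from the same ChIP library around the peak, had a median of 12.57 reads, against 5.16 over the list and 7.77 near starts. That is 5.59 times the lowest background of the list for histone genes, against 2.29 times over the list and 3.45 times near starts.

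The 2 measures of strength ranked these peaks differently. By fold enrichment the SMAD4 peaks had a median of 4.84, at percentile 24.7 of the list (15.3 to 36.9) and at percentile 10.5 among peaks near starts. By −log10 q they had a median of 22.1, at percentile 57.2 of the list. The most reads were 137, under the coding summit in the H2A gene H2AC20, where the background was 25.14 reads and the fold enrichment 5.28.

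For p300 the background was nearer to that of the list. The 38 separate p300 peaks had a median of 24.5 reads and a background of 4.29 reads, against 3.76 over the list and 5 near starts. Their median fold enrichment of 4.75 stood at percentile 41.0 of the list (31.4 to 60.8) and at percentile 50.3 among peaks near starts, while by −log10 q their median stood at percentile 64.1 of the list. For DPF3a the background had a median of 3.38 reads, against 2.82 over the list.

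**Figure D4:**
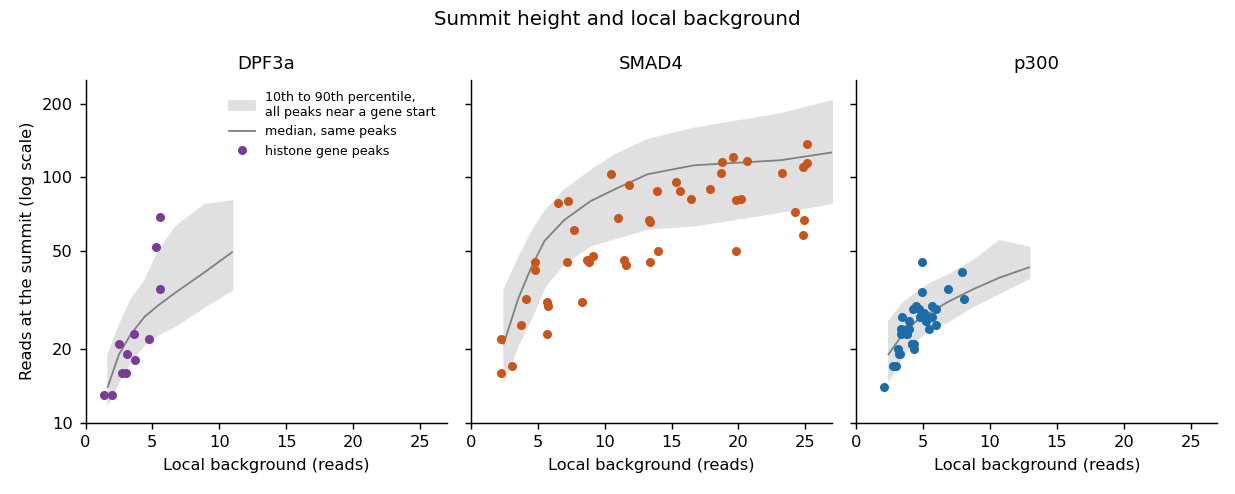
Reads at the summit (vertical axis, log scale) against the local background in reads (horizontal axis) for each DPF3a, SMAD4 and p300 peak at a histone gene (points), with the median (line) and the 10th to 90th percentile (grey band) of all peaks of that list near a protein-coding start. SMAD4 peaks at histone genes had a median background of 12.57 reads against 7.77 for all SMAD4 peaks near a start, and their fold enrichment stood at percentile 10.5 of those peaks.

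By family, coding summits of SMAD4 and p300 were most frequent in H3 genes and least in H2B genes, with intervals that overlap between several families. The family totals include genes with no 100-base sequence of the coding part that occurs once in the reference. These are H4C11, H4C12, H4C14, H4C15, H2AC18, H2AC19, H3C14 and H3C15, and none is an H1 or H2B gene. They had no coding summit, and their part in the differences between families was not tested. H3 genes had a SMAD4 coding summit in 10 of 13 (76.9%, 49.7 to 91.8) and a p300 coding summit in 9 (69.2%, 42.4 to 87.3), and no promoter summit of either factor. H2A genes had them in 9 of 17 for SMAD4 and in 9 of 17 for p300 (52.9%, 31 to 73.8). H4 genes had them in 6 of 15 for each factor (40%, 19.8 to 64.3). H1 genes had them in 3 of 6 for each factor (50%, 18.8 to 81.2). H2B genes had them in 4 of 18 for SMAD4 (22.2%, 9 to 45.2) and in 3 of 18 for p300 (16.7%, 5.84 to 39.2). No DPF3a summit lay within 1000 bp of the start of any of the 18 H2B genes, which allows a share of up to 17.6%.

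Within the coding sequences, the highest DPF3a fold enrichment was that of H3C2, given above. For SMAD4 the highest fold enrichments were 9.81 in H4C4 and 9.06 in H4C3, with 80 and 103 reads, followed by 7.08 in H2BC18 with 22 reads. The background at H2BC18 was 2.25 reads, at the lowest level of the list. Of the 100-base sequences around that gene, 63.5% occur once in the reference. The lowest was 2.90 in H3C12, with 72 reads over a background of 24.20. For p300 the highest was 7.77 in H1-2, at percentile 97.8 of the list, with 45 reads over a background of 4.92, and the lowest was 3.63 in H2AC20.

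Of the linker histone genes, H1-2, H1-3 and H1-4 had coding summits of both SMAD4 and p300, whereas H1-1, H1-5 and H1-6 had no summit of any factor in the gene or within 1000 bp. H1-5 was nevertheless covered over 100% of its canonical transcript by a SMAD4 peak of 2514 bp whose summit, in the coding sequence of H2AC16, lay 2185 bp from the start of H1-5. SMAD4 fold enrichments were 5.92 in H1-2, 5.64 in H1-3 and 4.40 in H1-4, and those of p300 were 7.77, 4.74 and 4.56. H1-6 is the testis-specific linker histone. The only DPF3a peak of the family lay 1282 bp from the start of H1-2, past its end.

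Promoter summits at histone genes mostly belonged to a neighbour. Of the 11 genes with a SMAD4 promoter summit, 8 had it within the coding sequence of an adjacent histone gene, and of the 11 with a p300 promoter summit 9 had it in the coding sequence and 1 in the 3′ untranslated part of an adjacent one. The 5 highest SMAD4 fold enrichments of promoter summits were 7.33 at H4C8, 5.97 at H2BC12, 5.34 at H2BC8, 5.33 at H2BC11 and 5.28 at H2BC21. Of these, the H4C8 summit alone lay outside a neighbour, at -13 bp. The 5 highest p300 values were 5.73 at H2BC11, 5.42 at H2BC15, 5.14 at H2BC12, 5.02 at H2AC15 and 4.84 at H2BC8, and all 5 lay in the partner of a head-to-head pair.

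There were 12 head-to-head pairs of an H2A and an H2B gene, with 193 to 250 bp between their starts and a median of 237 bp. A SMAD4 summit lay within 8 of these pairs, in the coding sequence of the H2A gene in 7 and of the H2B gene in 1, H2BC13. p300 summits lay within 7 pairs, with 6 in H2A coding sequences, 2 in H2B coding sequences (H2BC4 and H2BC11) and 1 in the 3′ untranslated part of H2BC15. Between the starts, where the shared promoter lies, neither factor had a summit in any of the 12 pairs, which allows a share of up to 24.2% of pairs. No DPF3a summit lay within any pair.

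**Figure D5:**
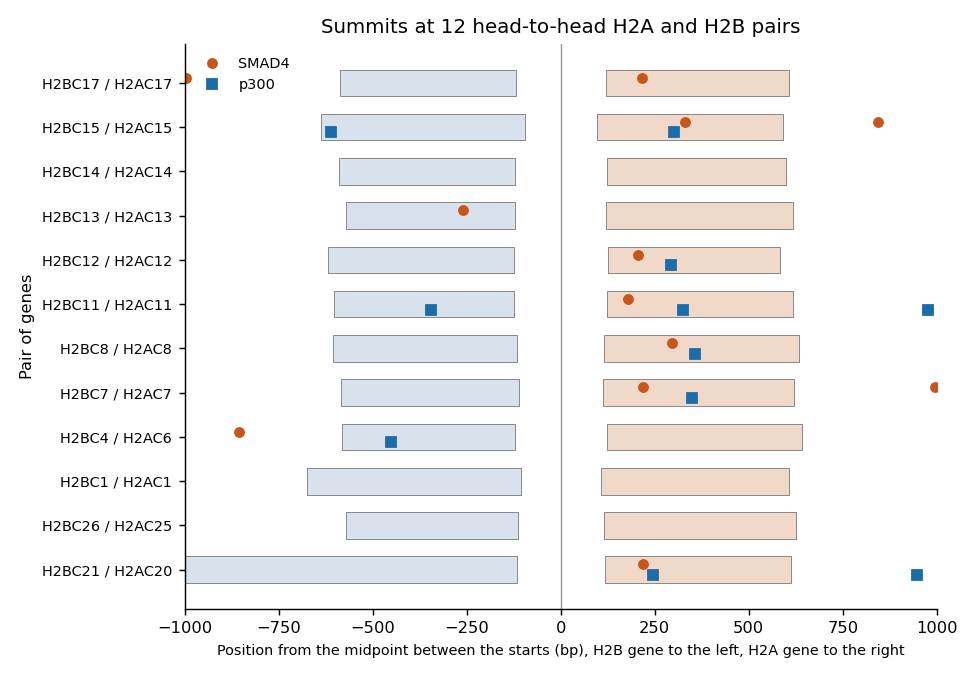
SMAD4 (circles) and p300 (squares) summits at the 12 head-to-head pairs (vertical axis), in bp from the midpoint between the starts (horizontal axis), with the canonical transcripts of the H2B gene drawn to the left and of the H2A gene to the right. SMAD4 summits lie in the H2A gene of 7 pairs and in the H2B gene of 1, and no summit lies between the starts.

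The promoters hold the elements known for this class. In the window from 250 bases before to 50 bases after the start, the octamer ATTTGCAT or its complement ATGCAAAT was present in 12 of 17 H2A and 14 of 18 H2B promoters and in no H1, H3 or H4 promoter, against 1.62% of all 20033 promoters of this length. CCAAT or ATTGG was present in 59 of the 69 (85.5%, against 36.1% of all) and TATAAA or its complement TTTATA in 46 (66.7%, against 9.71%). The AP-1 sequences TGACTCA and TGAGTCA, present in 3.57% of all promoters, and the SMAD palindrome GTCTAGAC, present in 0.21%, were in none of the 69. Windows of a head-to-head pair overlap, so that 1 element can count for both genes.

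By peaks, the octamer was in 11 of the 32 promoters of genes with a SMAD4 coding summit (34.4%) and in 5 of the 16 of genes without a summit of any factor (31.2%). TATAAA or its complement was in 62.5% of each. Shown first are the 200 bases upstream of the start in the leading genes H4C4 (chr6:26189113-26189312, minus strand) and H3C2 (chr6:26032100-26032299, minus strand), then the bases between the starts of H2AC25 and H2BC26 (chr1:228457874-228458102), of H2BC12 and H2AC12 (chr6:27146856-27147105), where SMAD4 and p300 had summits in H2AC12, and of H2AC1 and H2BC1 (chr6:25726563-25726776), with no peak in any list. The last 3 are on the plus strand, and capitals mark octamers, CCAAT boxes and TATA boxes as spelled above, on either strand.

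H4C4 promoter: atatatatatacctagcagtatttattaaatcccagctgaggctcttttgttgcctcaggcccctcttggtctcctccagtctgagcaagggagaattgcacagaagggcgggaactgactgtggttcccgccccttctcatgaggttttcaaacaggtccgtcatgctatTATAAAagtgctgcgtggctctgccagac
H3C2 promoter: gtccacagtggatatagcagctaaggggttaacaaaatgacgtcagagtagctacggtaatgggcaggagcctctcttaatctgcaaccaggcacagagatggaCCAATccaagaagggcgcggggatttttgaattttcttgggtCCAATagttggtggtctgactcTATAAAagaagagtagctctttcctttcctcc
H2AC25 to H2BC26: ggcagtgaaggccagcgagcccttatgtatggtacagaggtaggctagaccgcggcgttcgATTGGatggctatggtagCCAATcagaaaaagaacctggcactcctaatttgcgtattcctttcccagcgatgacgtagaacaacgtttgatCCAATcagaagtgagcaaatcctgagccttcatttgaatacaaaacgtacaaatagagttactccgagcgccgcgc
H2BC12 to H2AC12: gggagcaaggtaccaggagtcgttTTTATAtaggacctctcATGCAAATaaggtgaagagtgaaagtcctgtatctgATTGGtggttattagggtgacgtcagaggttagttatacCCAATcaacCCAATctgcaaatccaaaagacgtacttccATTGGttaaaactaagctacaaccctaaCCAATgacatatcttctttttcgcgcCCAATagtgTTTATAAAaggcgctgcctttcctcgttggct
H2AC1 to H2BC1: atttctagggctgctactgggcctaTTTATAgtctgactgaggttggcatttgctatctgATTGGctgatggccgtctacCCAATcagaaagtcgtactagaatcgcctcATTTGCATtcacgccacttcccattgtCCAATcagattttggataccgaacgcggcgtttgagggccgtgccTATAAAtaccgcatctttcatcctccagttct

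The pair without a peak held 1 octamer, 3 CCAAT boxes and 2 TATA boxes in 214 bases. The H2BC12 to H2AC12 stretch held 1 octamer, 6 CCAAT boxes and 3 TATA boxes, of which 2 overlap, in 250 bases. The H2BC12 to H2AC12 pair was chosen for printing after its values were seen.

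Nearly identical copies limit what these lists can hold, because the authors kept reads of mapping quality 30 or more. Around each canonical transcript and 1000 bp on either side, the share of 100-base sequences that occur once in the reference was at least 90% in 59 genes and lower in 10. In 8 genes no 100-base sequence of the coding part was unique, and these form 4 pairs of identical coding sequence, H4C14 with H4C15, H3C14 with H3C15, H2AC18 with H2AC19, and H4C11 with H4C12. In H3C14, H3C15, H4C14 and H4C15 no 100-base sequence of the whole window was unique.

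None of the 8 had a coding summit of any factor. H4C11 and H4C12 had SMAD4 summits at 406 and 439 bp from the start, downstream of their coding sequences of 309 bp, with fold enrichments of 7.93 and 7.44. Among the 59 mostly unique genes SMAD4 was at 47 (79.7%, 67.7 to 88), p300 at 41 (69.5%, 56.9 to 79.7) and DPF3a at 12 (20.3%, 12 to 32.3). Among the other 10 the counts were 5, 0 and 1. Of the 16 genes without a summit of any factor in the gene or within 1000 bp, 5 were of this repeated kind (H4C14, H4C15, H3C14, H3C15 and H2AC18).

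The other 11 genes without a summit were mostly unique. A peak overlapped the canonical transcript in 1 of the 16, H1-5. The 11 were H2AC1, H2BC1, H1-1, H1-5, H1-6, H2BC3, H4C6, H4C7, H2AC14, H2BC14 and H2BC26. H2AC1 and H2BC1, which stand head to head, encode the testis-specific histones of their families. The coding sequences of H2BC1, H1-6, H1-1 and H2AC1 had the lowest GC content of the 11, at 48.6%, 49.3%, 53.5% and 54.2%, against a median of 61.2% over the 69 genes. The rest of the 11 ranged from 54.5% (H2BC3) to 63.0% (H2AC14). H1-3, with coding summits of SMAD4 and p300, had 54.4%. Over the mostly unique genes the median GC content was 61.25% with a SMAD4 coding summit and 59.3% without, and 61.05% with a p300 coding summit and 59.5% without. The part of GC content in the peaks was not tested.

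Other genes of the same regions had DPF3a peaks at a share near that of all genes. The 20 other protein-coding genes that lie between the outermost histone genes of a cluster had a DPF3a summit within 1000 bp of the start in 9 cases (45%, 25.8 to 65.8), a SMAD4 summit in 15 (75%, 53.1 to 88.8) and a p300 summit in 6 (30%, 14.5 to 51.9). The shares over all protein-coding genes were 41.8%, 57.8% and 39.3%, each within the interval. A site of all 3 factors was present at 4 of them (20%, against 29.4% of all genes). A coding summit of SMAD4 or p300 was present at 1 each (5%, against 8.68% and 7.87% of all genes). Within the histone genes, the share with any SMAD4 summit was 80% of the 55 on chromosome 6 (67.6 to 88.4) and 54.5% of the 11 in the larger cluster on chromosome 1 (28 to 78.7).

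Replacement histones, which are made throughout the cell cycle from genes outside these clusters, had a DPF3a summit within 1000 bp of the start in 7 of 11 genes (63.6%, 35.4 to 84.8), a SMAD4 summit in 9 (81.8%, 52.3 to 94.9) and a p300 summit in 6 (54.5%, 28 to 78.7). The intervals hold the shares over all genes, 41.8%, 57.8% and 39.3%. A site of all 3 factors was present at 3 of the 11 (27.3%, against 29.4% of all genes). H2AX, which encodes the H2A variant phosphorylated at DNA breaks, had p300 and DPF3a summits in its coding sequence at 262 and 252 bp with fold enrichments of 4.73 and 4.36, and a SMAD4 summit at 34 bp with 8.11. H3-3B, which encodes the replacement histone H3.3, had all 3 summits between 129 and 209 bp from its start, in an intron.

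All 18 genes for the transcription and processing of histone mRNA had a SMAD4 promoter summit, against 45.8% of all genes. DPF3a had a summit at 15 of them (83.3%, against 63.8%) and a promoter summit at 10 (55.6%, 33.7 to 75.4, against 30.9%). For p300 the counts were 12 (66.7%, against 50.6%) and 8 (44.4%, 24.6 to 66.3, against 22.9%). Coding summits were at 1 of 18 for each factor (5.56%), near the 6.2% to 8.68% of all genes. At NPAT, the coactivator of histone transcription, DPF3a, SMAD4 and p300 summits lay at -607, -472 and -450 bp with fold enrichments of 5.82, 6.63 and 4.95. At SLBP, which binds the stem-loop of histone mRNA, they lay at -14, -230 and -159 bp with 5.52, 8.28 and 3.06. Of the 9 genes for histone chaperones, which carry histones to and from DNA, 5 had a DPF3a summit within 1000 bp of the start, 8 a SMAD4 summit and 4 a p300 summit. These are 55.6%, 88.9% and 44.4%, against 41.8%, 57.8% and 39.3% of all genes.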

How the data were processed

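The deposited files are 1 peak list per factor, made by the authors from both replicates, and how these were combined is not given in the sources used here. Per the study's methods and the submitters' processing notes, reads were trimmed with cutadapt, mapped to hg38 with Bowtie2 2.3.5.1, filtered for mapping quality of at least 30 and for duplicates with Picard, and MACS2 2.2.5 called peaks. No control library is named. The authors deposited a score (kept over 50, lowest 51), fold enrichment (a ratio), and −log10 p and −log10 q. Reads and background at each summit were computed from fold enrichment and −log10 p and recovered for 100% of peaks.

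A summit counted for every gene within 1000 bp of it. Intervals are Wilson 95%, and those of medians binomial. Scripts ran in Python 3.11.15 with pandas 2.3.3 and SciPy 1.17.1, and were tested on simulated data. The members and lists were chosen with earlier results of these data known. Genes named are the 5 with the highest promoter summits per list, those with a site of all 3 factors, those with coding summits touching no other list, those with no summit, H1-1 to H1-6 and the extremes of uniqueness. Others were named after their values were seen. Alternatives were stricter scores, other distances, unique genes, nearest gene and other overlaps.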

Additional observations from a re-analysis of the deposited data

How the results depend on the processing

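Of 73 results under alternative settings, 43 stayed within 1.5 times the count or within the interval, and 30 moved. With a score over 100, DPF3a summits were at 4 genes (promoter 0, coding 2), p300 summits at 10 (promoter 1, coding 8) and sites of all 3 factors at 1. With a score over 200, DPF3a summits were at 2 genes (promoter 0, coding 1), p300 summits at 1 (promoter 0, coding 1) and SMAD4 coding summits at 19. Within 500 bp, promoter summits were at 1 gene for DPF3a and 7 for p300. Within 2000 bp they were at 6 genes for DPF3a, at 25 for SMAD4 and at 18 for p300. Counting each summit for the nearest gene alone left SMAD4 promoter summits at 2 genes and p300 ones at 1. Coding summits more than 200 bp from the start were at 2 genes for DPF3a and 2 for SMAD4. The median percentile was 57.2 for SMAD4 and 64.1 for p300 by −log10 q, 14.5 and 27.4 over promoter summits only, and 10.5 for SMAD4 among peaks near a start. Sites of all 3 factors were at 6 genes with an overlap of 1 bp, and at 1 with the canonical transcript in place of the annotated gene, an alternative chosen after seeing the data. The cause of these changes was not tested beyond the peaks or genes that each setting removes or adds. Among these alternatives, shares over all protein-coding genes are given only for coding summits with a score over 100. Other settings change the counts of all genes too, so the changes are not read as particular to histone genes.

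No paired analysis was possible because the replicates of a factor share 1 peak list, and for the same reason none was left out. The local background comes from the ChIP libraries themselves. Peaks of p300 and DPF3a at these genes had medians of 24.5 and 20 reads, so that their counts depend on the score required, and the absence of a summit in repeated genes says nothing about binding there.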
